A study of Mus musculus with 2 samples.

Results

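miR-126a, miR-221 and miR-222 are 3 microRNA hairpins of the mouse liver, and the 6 mature strands cut from them (a 3p and a 5p strand each) were followed here by their names in 2 deposited tables (mmu-miR-126a-3p, mmu-miR-126a-5p, mmu-miR-221-3p, mmu-miR-221-5p, mmu-miR-222-3p and mmu-miR-222-5p, written without the species prefix below). All 6 were found in each table, among 484 microRNAs listed in the first and 1915 in the second. Small RNA libraries had been made from total liver RNA of female wild-type C57BL/6 mice aged 8 to 10 weeks. All mice first spent 5 days on the control Lieber-DeCarli liquid diet. For the next 10 days ethanol at 5% (v/v) was added to the diet of the ethanol-fed mice, which received 6 g/kg ethanol by gavage on day 16. Pair-fed controls stayed on an isocaloric diet and received isocaloric dextrin-maltose by gavage, and all livers were collected 9 h later. In the deposited design statement the feeding is given as 16 days instead. Each table holds 1 pair-fed and 1 ethanol-fed library, called experiment 1 and experiment 2 below, and the sources used here do not say how many animals stand behind a library. No spread between animals can therefore be given. A table has no replicate of a condition, and no test was run across the tables, which hold different units, so the values of the 2 experiments are given side by side. Ranges in brackets are 95% exact binomial intervals, which cover the counting error of 2 values and nothing else.

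A microRNA hairpin is cut into a short duplex, of which usually 1 strand is kept as the guide that pairs with messenger RNAs through its seed (bases 2 to 8), while the other strand is degraded. miR-126 is the best known microRNA of endothelial cells and is made from an intron of Egfl7, a gene for a protein that endothelial cells secrete. It represses Spred1 and Pik3r2, inhibitors of signalling downstream of vascular growth factor receptors, and it is also plentiful in platelets. miR-221 and miR-222 come from neighbouring hairpins on the X chromosome and share a seed, and they repress Cdkn1b, an inhibitor of the cell cycle, and Kit, a receptor of growth signals. They are made in vessel walls, and in the liver they are known from dividing hepatocytes and from activated stellate cells. The liver is lined throughout by sinusoidal endothelium. These libraries came from whole liver, in which fewer cells of a type and less of an RNA per cell cannot be told apart.

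The mature sequences are shown because the seed, in capitals, shows which of the strands can share targets. They were taken from RefSeq (build GRCm38.p6), where 4 of the 6 members had a mature entry.
miR-126a-3p: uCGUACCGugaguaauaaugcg
miR-221-3p: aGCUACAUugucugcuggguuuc
miR-222-3p: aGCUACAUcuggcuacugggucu
miR-221-5p: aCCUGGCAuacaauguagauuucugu
miR-221-3p and miR-222-3p had the same first 8 bases and thus the same seed, GCUACAU. Beyond the seed they diverged, with 11 of 23 bases identical when aligned from base 1 without gaps (47.8%). Only miR-1928 shared this seed among the other microRNAs of the tables with an entry, and it was listed at 0 in both libraries of experiment 2 and has no value here for experiment 1. The seeds of miR-126a-3p and miR-221-5p were found in no other microRNA of the tables with an entry.

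The hairpins are given in full to show how both strands of each come from 1 precursor, with the 3p strand in capitals.
Mir126a: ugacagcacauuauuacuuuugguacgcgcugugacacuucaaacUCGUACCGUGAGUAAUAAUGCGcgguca
Mir221: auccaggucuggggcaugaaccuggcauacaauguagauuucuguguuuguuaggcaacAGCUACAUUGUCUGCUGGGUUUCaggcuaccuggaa
Mir222: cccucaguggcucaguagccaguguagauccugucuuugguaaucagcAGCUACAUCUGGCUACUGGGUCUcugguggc
Mir126a lies at chr2:26591357-26591429 on the plus strand (73 nt), and miR-126a-3p is its bases 46 to 67. It is within Egfl7 (chr2:26580014-26593120, same strand), between exons 7 and 8 of a transcript that spans it. In the GENCODE vM21 annotation, 9 of the 19 Egfl7 transcripts span the hairpin, 8 of them with the hairpin in an intron and 1 with it in an exon. Mir221 (chrX:19146294-19146388, 95 nt) and Mir222 (chrX:19146893-19146971, 79 nt) are both on the minus strand, 504 bp apart, and no other annotated gene overlaps either of them. On the opposite strand of the Egfl7 intron lies Mir126b, whose reverse complement is bases 7 to 64 of Mir126a. It is a separate microRNA gene and was counted apart from miR-126a.

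Levels are in reads per 1000000 reads on microRNAs (RPM). The library totals were 4170601 (pair-fed) and 4311802 reads (ethanol-fed) in experiment 1, which was deposited as counts. Experiment 2 was deposited as RPM, and its low values rose in steps of 0.0925 (pair-fed) and 0.0924 RPM (ethanol-fed). Taking a step as 1 read gave estimated totals of 10812050 and 10820205 reads, and the read numbers and intervals of experiment 2 rest on this estimate. The lowest value listed above 0 there was 0.92 RPM, or 10 steps, so a 0 in that table can stand for a few reads.

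miR-126a was the most abundant of the 3 hairpins in all 4 libraries, and both of its strands were somewhat higher in the ethanol-fed library of each experiment. miR-126a-3p had 294 RPM (1226 reads) under pair-feeding and 350 RPM (1511 reads) under ethanol of experiment 1, a ratio of 1.19 (1.10 to 1.29). In experiment 2 it had 21096 RPM under pair-feeding and 24945 RPM under ethanol, a ratio of 1.18 (1.18 to 1.19). The direction and the size were thus alike in the 2 experiments, although the level was far from alike.

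miR-126a-5p, the opposite strand of the duplex, had 3560 RPM (14849 reads) under pair-feeding and 4791 RPM (20659 reads) under ethanol of experiment 1, a ratio of 1.35 (1.32 to 1.37). Its levels in experiment 2 were 1239 RPM (pair-fed) and 1386 RPM (ethanol-fed), a ratio of 1.12 (1.09 to 1.15). Both intervals lie above 1, so the ethanol-fed library held more of this strand than counting error alone gives. With both strands added, the hairpin went from 3854 to 5142 RPM in experiment 1 (ratio 1.33, 1.31 to 1.36) and from 22335 to 26332 RPM in experiment 2 (ratio 1.18, 1.17 to 1.19).

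These differences were of a common size for microRNAs counted this deeply. Where the 2 libraries of a table held 1000 or more reads of a microRNA between them, the median absolute log2 ratio between the libraries was 0.23 in experiment 1 (82 microRNAs) and 0.21 in experiment 2 (151 microRNAs). The log2 ratio of miR-126a-3p, computed after adding 1 read to each library, was 0.25 in experiment 1, and 40 of the 82 microRNAs (48.8%) had one at least as large in either direction. In experiment 2 it was 0.24, and 68 of 151 (45.0%) had one at least as large. For miR-126a-5p the log2 ratios were 0.43 and 0.16, reached or passed by 22 of 82 microRNAs (26.8%) and by 97 of 151 (64.2%).

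**Figure D1:**
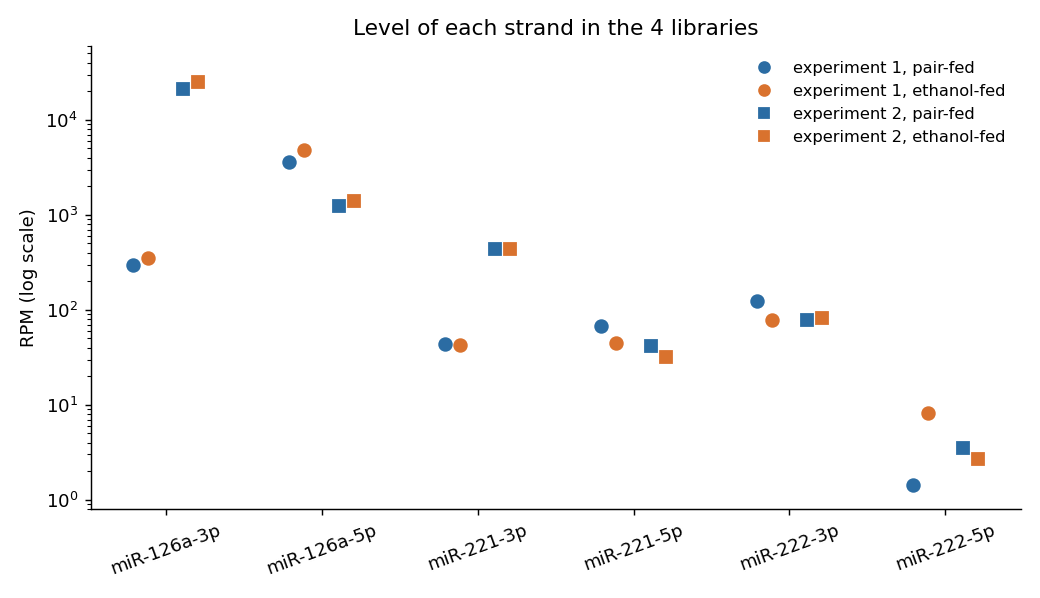
Level of each of the 6 strands in RPM, on a log scale, in the pair-fed (blue) and ethanol-fed (orange) libraries of experiment 1 (circles) and experiment 2 (squares); each point is 1 library and no error bar is drawn. The circles of miR-126a-3p lie at 294 and 350 RPM and its squares at 21096 and 24945 RPM, a far wider gap than that between the 2 colours, and miR-221-3p shows the same pattern on a smaller scale.

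miR-221-3p hardly differed between the libraries of either experiment. It had 43.9 RPM (183 reads) under pair-feeding and 43.1 RPM (186 reads) under ethanol of experiment 1, a ratio of 0.983 (0.797 to 1.21). The levels of experiment 2 were 439 and 435 RPM, a ratio of 0.990 (0.9503 to 1.03). Both intervals include 1, and the deeper experiment 2 gave by far the narrower one. No difference was detectable at these depths.

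miR-222-3p, which has the same seed, did not behave alike in the 2 experiments. In experiment 1 it had 125 RPM (522 reads) under pair-feeding and 77.5 RPM (334 reads) under ethanol, a ratio of 0.619 (0.538 to 0.711). In experiment 2 it had 77.6 RPM (pair-fed) and 82.2 RPM (ethanol-fed), a ratio of 1.06 (0.962 to 1.16) whose interval includes 1. The 2 intervals do not overlap. In experiment 1, 115 of the 302 microRNAs that reached 10 reads (38.1%) had a log2 ratio at least as large in either direction as the -0.69 of miR-222-3p. Of these 302, 144 had only 10 to 99 reads, where large ratios were most frequent, so this share is not for microRNAs of its depth. Among the 82 microRNAs with 1000 or more reads the median absolute log2 ratio was 0.23.

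Added together as the pool that carries the shared seed, miR-221-3p and miR-222-3p went from 169 RPM (705 reads) to 121 RPM (520 reads) in experiment 1, a ratio of 0.713 (0.636 to 0.8002). The sum was 517 RPM in both libraries of experiment 2, with a ratio of 1.00 (0.963 to 1.04). In experiment 1 the lower sum came from miR-222-3p, because miR-221-3p was at nearly the same level in both libraries.

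Of the 5p strands of this pair, miR-222-5p was rarer than its 3p strand in every library, miR-221-5p only in those of experiment 2. miR-221-5p was lower in the ethanol-fed library of both experiments, at 67.9 RPM (283 reads) against 45.2 RPM (195 reads) in experiment 1, a ratio of 0.666 (0.552 to 0.803). In experiment 2 the values were 41.2 RPM (pair-fed) and 31.9 RPM (ethanol-fed), a ratio of 0.775 (0.671 to 0.894). Both intervals lie below 1. In experiment 1, 135 of 302 microRNAs (44.7%) had a log2 ratio at least as large in either direction as the -0.58 of miR-221-5p. For its -0.37 in experiment 2 the share was 256 of 469 (54.6%). Rarely read microRNAs, with 10 to 99 reads, made up 144 of the 302 and 171 of the 469, so neither share is for microRNAs of its depth.

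miR-222-5p was the rarest strand in every library. It had 6 reads (1.44 RPM) in the pair-fed and 35 reads (8.12 RPM) in the ethanol-fed library of experiment 1, a ratio of 5.64 with a wide interval of 2.35 to 16.4. In experiment 2 it had 3.51 RPM (pair-fed) and 2.68 RPM (ethanol-fed), about 38 and 29 reads, a ratio of 0.764 (0.454 to 1.27). The higher level of experiment 1 was thus not seen in the other table, where the interval includes 1 and ends below the lower bound of experiment 1.

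Calling a microRNA at a log2 ratio of at least 1 in either direction, 1 of the 6 members was higher in experiment 1, miR-222-5p, against 38 of 302 microRNAs (12.6%), and 0 members were lower, against 39 of 302 (12.9%). In experiment 2, 0 members were higher, against 50 of 469 (10.7%), and 0 were lower, against 71 of 469 (15.1%). With the zeros of that table set to its lowest listed value the 50 became 23 and the 71 became 49, while no member was listed at 0. Calls of this kind were most frequent among rarely read microRNAs: of the 144 with 10 to 99 reads in experiment 1, to which miR-222-5p belongs, 19.4% were at least 2-fold higher and 20.8% at least 2-fold lower. The median log2 ratio of the 6 members was 0.11 in experiment 1 (all 302 microRNAs, -0.01) and 0.03 in experiment 2 (all 469 microRNAs, 0.00).

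**Figure D2:**
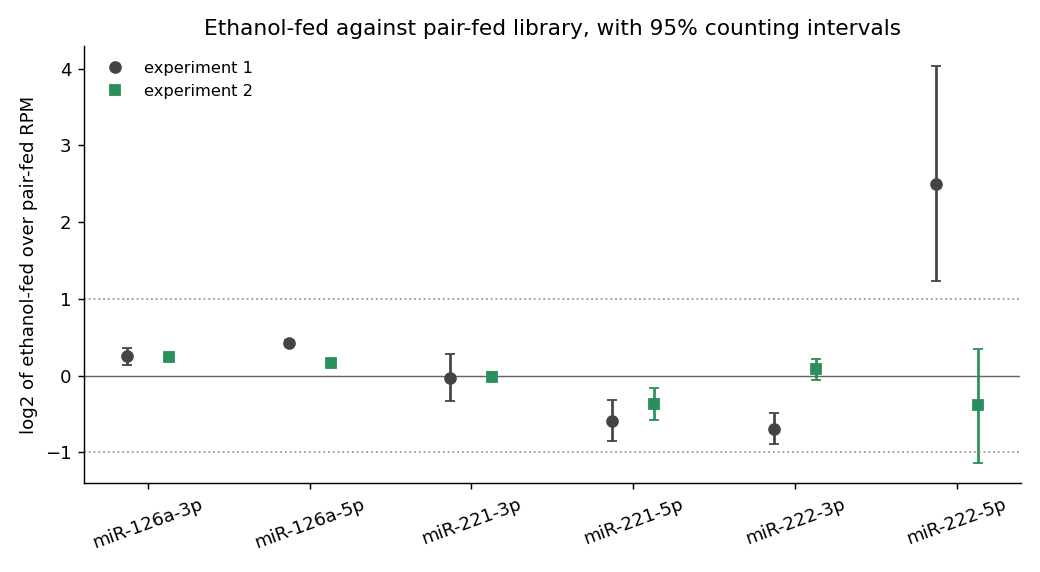
Log2 of the ethanol-fed over the pair-fed RPM of each strand, without added reads, in experiment 1 (grey circles) and experiment 2 (green squares); bars are 95% counting intervals, and dotted lines mark 2-fold. Both strands of miR-126a lie above 0 and miR-221-5p below 0 in both experiments, whereas miR-222-3p and miR-222-5p lie on opposite sides.

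Of the 6 members, 2 were higher in the ethanol-fed library of both experiments (both strands of miR-126a), 2 were lower in both (both strands of miR-221) and 2 went opposite ways (both strands of miR-222). Of the 283 microRNAs that reached 10 reads in each table, 70 (24.7%) were higher in both and 65 (23.0%) lower in both. The ratios of miR-221-3p were within counting error of 1 in both experiments.

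The order of the 6 strands differed between the experiments and was the same in both conditions of an experiment. In both libraries of experiment 1 it ran from miR-126a-5p through miR-126a-3p, miR-222-3p, miR-221-5p and miR-221-3p to miR-222-5p. The ethanol-fed library of that experiment held 1.05 times as much miR-221-5p as miR-221-3p (0.853 to 1.29), so these neighbours could not be told apart there. Every other step of the order, in all 4 libraries, exceeded counting error. Experiment 2 ran from miR-126a-3p through miR-126a-5p, miR-221-3p, miR-222-3p and miR-221-5p to miR-222-5p, again in both libraries. Only miR-222-5p kept its place, at the end. miR-126a-3p ranked 61st and 58th among the microRNAs above 0 in experiment 1 (pair-fed and ethanol-fed) and 10th and 9th in experiment 2, where it made up 2.11% and 2.49% of the microRNA reads.

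The more abundant strand of miR-126a was the 5p strand in experiment 1 and the 3p strand in experiment 2, under either diet. miR-126a-5p outnumbered miR-126a-3p by 12.1 times (11.4 to 12.8) in the pair-fed and by 13.7 times (13.0 to 14.4) in the ethanol-fed library of experiment 1. In experiment 2, miR-126a-3p outnumbered miR-126a-5p by 17.0 times (16.7 to 17.3) in the pair-fed and by 17.99 times (17.7 to 18.3) in the ethanol-fed library. The share of the hairpin's reads that came from the 3p strand was thus 7.63% and 6.82% in experiment 1 against 94.5% and 94.7% in experiment 2. Because both strands were counted in the same library, this ratio does not depend on how the libraries were scaled.

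miR-221 showed the same kind of swap. The 3p strand made up 39.3% (pair-fed) and 48.8% (ethanol-fed) of its reads in experiment 1, with 3p over 5p ratios of 0.647 (0.534 to 0.782) and 0.954 (0.776 to 1.17). Its share in experiment 2 was 91.4% and 93.2%, with ratios of 10.7 (9.69 to 11.8) and 13.6 (12.2 to 15.3). In the ethanol-fed library of experiment 1 the strands were equal within counting error, so the swap rests on the pair-fed library for its direction.

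miR-222 kept the 3p strand as the more abundant in every library. The 3p over 5p ratio of experiment 1 was 87.0 (39.7 to 238) under pair-feeding and 9.54 (6.73 to 13.9) under ethanol, and that of experiment 2 was 22.1 (16.0 to 31.4) and 30.7 (21.2 to 46.0). The 6 reads of miR-222-5p set the width of the first of these intervals.

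**Figure D3:**
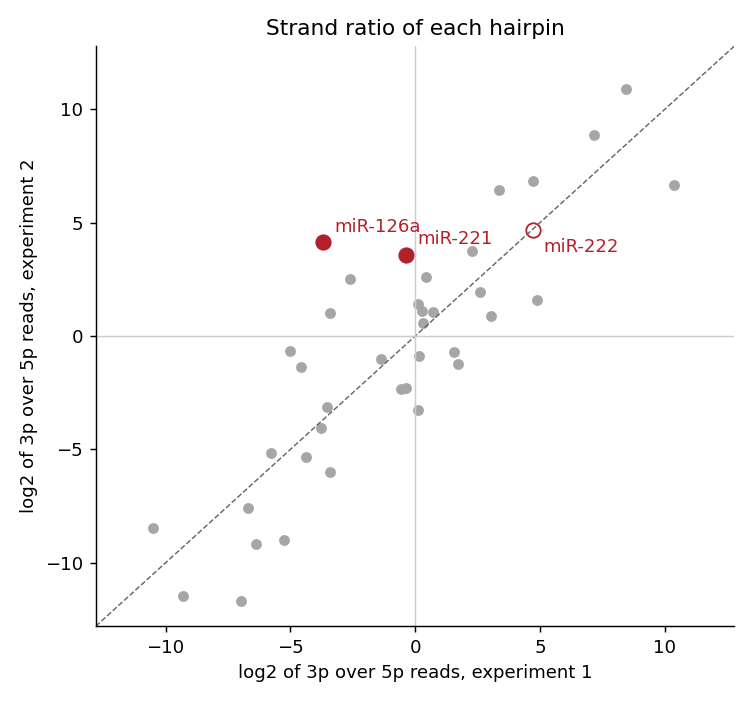
Log2 of 3p over 5p reads for each hairpin, the mean of the pair-fed and ethanol-fed libraries, in experiment 1 (horizontal) and experiment 2 (vertical); grey points are other hairpins with at least 10 reads of each strand in all 4 libraries, and the open circle of miR-222 marks that 1 of its strands had fewer. miR-126a, 7.81 above the dashed line of equal ratios, lies farthest from it, and miR-221 lies 3.94 above it.

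Of the 38 hairpins with at least 10 reads of each strand in all 4 libraries, 6 (15.8%) had another strand on top in experiment 2 than in experiment 1: miR-126a, miR-221, miR-1247, miR-145a, miR-361 and miR-423. miR-126a had the largest shift of the 38, at 7.81 on the log2 scale or 225-fold, and miR-221 the 6th largest, at 3.94 or 15.3-fold. The median absolute shift was 2.16. Shifts went both ways, 20 toward the 3p strand in experiment 2 and 18 toward the 5p strand. miR-222 was outside this count, and its log2 ratio went from 6.22 to 4.43 between the pair-fed libraries and from 3.22 to 4.89 between the ethanol-fed libraries, in opposite directions. The cause of the shifts was not tested.

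Between the conditions the strand ratio of miR-126a moved less than that of the median hairpin. The log2 of 3p over 5p for miR-126a was lower by 0.18 in the ethanol-fed than in the pair-fed library of experiment 1 (difference -0.18) and higher by 0.08 in experiment 2. For miR-221 it was higher in the ethanol-fed library by 0.56 and 0.35, where miR-221-5p was lower and miR-221-3p was within counting error of no difference. The median absolute difference over the 38 hairpins was 0.45 in experiment 1 and 0.22 in experiment 2. Over the 13 hairpins with at least 100 reads of each strand it was 0.36 and 0.17. Small as they were, the differences of miR-126a exceeded counting error, as its intervals do not overlap between the conditions in either experiment. miR-222 differed by -3.01 in experiment 1, on the 6 and 35 reads of its 5p strand, and by 0.46 in experiment 2.

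The balance of miR-221-3p and miR-222-3p also turned between the experiments. miR-222-3p was 2.85 times as abundant as miR-221-3p in the pair-fed and 1.80 times in the ethanol-fed library of experiment 1. miR-221-3p was 5.66 times (5.26 to 6.10) as abundant as miR-222-3p in the pair-fed and 5.29 times (4.93 to 5.69) in the ethanol-fed library of experiment 2. Within experiment 1 the ratio of miR-221-3p to miR-222-3p was 0.351 (0.295 to 0.416) in the pair-fed and 0.557 (0.463 to 0.668) in the ethanol-fed library, and these intervals do not overlap. The seed is the same, so the pool of this seed was mostly miR-222-3p in the first table and mostly miR-221-3p in the second.

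The tables were scaled separately, and levels set across them are given as a description. miR-126a-3p was 71.8 times as high in experiment 2 as in experiment 1 in the pair-fed libraries and 71.2 times in the ethanol-fed libraries, and miR-221-3p was 10.0 and 10.1 times as high. For the 113 microRNAs that reached 100 reads in every library the median fold between the tables, in either direction, was 3.31 (pair-fed) and 3.28 (ethanol-fed), and miR-126a-3p had the 2nd and the 3rd largest. miR-126a-5p was instead 2.87 and 3.46 times as high in experiment 1 as in experiment 2, and miR-221-5p 1.65 and 1.42 times. Both hairpins thus had opposite strands higher in opposite tables.

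Over the 4 libraries, the microRNAs whose levels ran most like those of a member were found by the Euclidean distance of log2 RPM, each centred on its own mean, among the same 113. Nearest to miR-126a-3p were miR-30c-5p (distance 0.35), miR-122-5p (0.59), the main microRNA of hepatocytes, and miR-148b-3p (0.65). Nearest to miR-221-3p were miR-27a-3p (0.12), miR-30b-5p (0.17) and miR-99a-5p (0.26), and nearest to miR-222-3p were miR-30c-2-3p (0.40), miR-30a-3p and miR-351-5p (both 0.43). With the ratios within the tables used instead, 0 of the 3 named microRNAs of each member remained. For miR-222-3p the likeness took in the gap between the diets of experiment 1, where miR-222-3p and its 3 nearest were all lower under ethanol. miR-30c-2-3p, for example, had 589 and 478 RPM in experiment 1 and 356 and 352 RPM in experiment 2. For miR-126a-3p and miR-221-3p the likeness lay mostly in the gap between the tables. Of the nearest to miR-126a-3p, miR-122-5p had 2971 and 2210 RPM in experiment 1 and 182938 and 156660 RPM in experiment 2. Its level was lower in the ethanol-fed library of each table, where that of miR-126a-3p was higher.

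The label of these microRNAs as endothelial was set beside 16 other microRNAs known from endothelium and vessel growth, a list with no messenger RNA marker in it. In experiment 1, 3 of the 13 measured members were higher and 10 lower in the ethanol-fed library, with a median log2 ratio of -0.15 and 0 past 2-fold. Over all 302 microRNAs of that experiment, 147 were higher and 155 lower, 12.6% at least 2-fold higher and 12.9% at least 2-fold lower. Experiment 2 had 11 of 15 higher and 4 lower, with a median of 0.22. There 1 was past 2-fold higher, miR-126b-3p from a listed 0, and 0 were past 2-fold lower. Over all 469 microRNAs, 236 were higher and 233 lower, 10.7% at least 2-fold higher and 15.1% at least 2-fold lower. The summed level went from 15188 to 14389 RPM in experiment 1 and from 22588 to 27002 RPM in experiment 2. miR-27b-3p, a regulator of vessel sprouting and of lipid genes, made up most of that sum, with 12456 and 11451 RPM in experiment 1 and 13122 and 16034 RPM in experiment 2. Without it the sum was higher in the ethanol-fed library of both experiments, at 2732 and 2938 RPM in experiment 1 and 9466 and 10969 RPM in experiment 2. The 3 higher members of experiment 1 were miR-92a-3p (923 and 1159 RPM), miR-130a-3p (729 and 844 RPM) and miR-31-5p (205 and 217 RPM). That sum thus followed a few abundant microRNAs, as 10 of the 13 measured members were lower.

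Members of the cluster of miR-23, miR-27 and miR-24 copies, which act on vessel growth, fell on both sides of 0. In experiment 1 the log2 ratios were -0.01 for miR-23a-3p, -0.32 for miR-24-3p, -0.11 for miR-27a-3p, -0.19 for miR-23b-3p and -0.12 for miR-27b-3p. In experiment 2 they were 0.63, 0.38, 0.13, 0.58 and 0.29 in the same order. By sign alone, all 5 were on the lower side in the first table and on the higher side in the second, unlike miR-126a. No counting interval was computed for them. The small ratios of experiment 1 rest on 330 and 339 reads for miR-23a-3p, 483 and 439 for miR-23b-3p and 836 and 800 for miR-27a-3p.

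The measured microRNAs of the cluster of miR-17 and miR-92a, which restrains or favours vessel growth according to the member, were mixed. miR-92a-3p had a log2 ratio of 0.33 in experiment 1 and -0.14 in experiment 2. miR-17-5p had -0.15 and -0.41, and miR-20a-5p -0.15 and -0.61. The values of experiment 1 rest on few reads, 28 and 26 for miR-17-5p and 27 and 25 for miR-20a-5p. miR-18a-5p had 1 and 2 reads in experiment 1 and -0.26 in experiment 2. Only miR-92a-3p was on the side of miR-126a, and only in experiment 1.

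The other members of the list included 2 that were higher in both ethanol-fed libraries, as miR-126a was. These were miR-130a-3p, a promoter of vessel growth, with log2 ratios of 0.21 and 0.21, and miR-31-5p, with 0.09 and 0.10. No counting interval was computed for microRNAs of the lists. Whether the 0.09 of miR-31-5p, from 854 and 937 reads, exceeds counting error was thus not tested. miR-210-3p, which is induced by low oxygen, had -0.58 and 0.28, miR-139-5p -0.42 and 0.29, and miR-181b-5p, a brake on inflammatory signalling in endothelium, -0.56 and 0.22. miR-126b-3p, from the strand opposite miR-126a, was listed at 0 in the pair-fed and at 1.20 RPM, about 13 reads, in the ethanol-fed library of experiment 2. As a 0 in that table can stand for a few reads, no fold is given for it, although it is among the 11 counted as higher. miR-126b-5p was listed at 0 in both libraries, and neither strand has a value here for experiment 1.

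Other cell types' microRNAs moved between the libraries as well. In experiment 1 all 4 microRNAs of the red cell list were higher and 3 were past 2-fold, against 12.6% of all 302 microRNAs. The red cell list went from 11559 to 33915 RPM in experiment 1 and from 1826 to 1152 RPM in experiment 2, with all 4 lower there. Its most abundant members were miR-486a-5p in experiment 1 (11512 and 33721 RPM) and miR-451a in experiment 2 (873 and 514 RPM). The leukocyte list had 404 and 335 RPM in experiment 1 and 872 and 463 RPM in experiment 2 (pair-fed and ethanol-fed), with all 4 microRNAs lower in both experiments, led by miR-142a-5p with 308 and 272 RPM and then 583 and 309 RPM. miR-126 is also found in platelets, and no platelet list was set up here. The part of blood cells in the levels of miR-126a was not tested.

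Hepatocyte microRNAs, the bulk of the tissue, had summed log2 ratios of -0.03 and -0.09, with 3 of 6 higher in each experiment. miR-192-5p led that list in experiment 1 (388161 and 373090 RPM) and miR-148a-3p in experiment 2 (185558 and 187898 RPM). The mesenchyme list, for stellate cells and fibroblasts among others, was level by its sum in experiment 1 (-0.01). miR-143-3p dominates that sum at 96276 and 95735 RPM. Still, 4 of the 5 microRNAs were higher there and 2 were past 2-fold, against 12.6% of all 302 microRNAs. The larger of these 2 ratios rests on 3 and 20 reads. In experiment 2 the sum of the list was higher by 0.33, with 2 of 5 higher and miR-143-3p at 15722 and 20681 RPM. The epithelium list was at 61.4 and 61.9 RPM in experiment 1, led by miR-141-3p at 22.1 and 21.8 RPM. In experiment 2 it went from 519 to 887 RPM with all 5 microRNAs higher and miR-200a-3p at 257 and 453 RPM. The part of any of these cell types in the levels of the 6 strands was not tested.

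**Figure D4:**
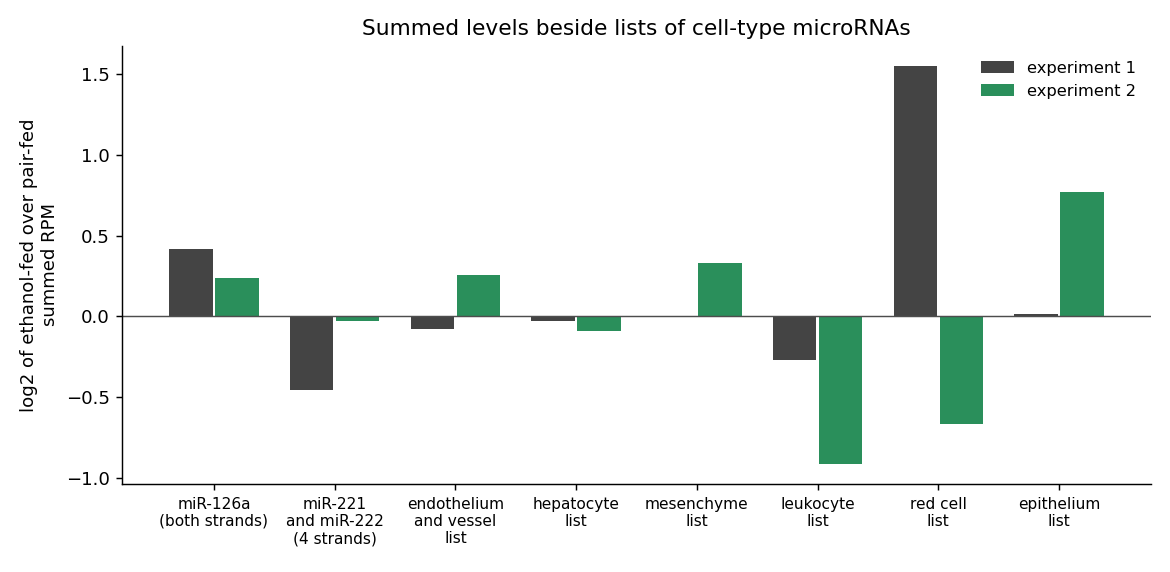
Log2 of the ethanol-fed over the pair-fed summed RPM for miR-126a (both strands), for the 4 strands of miR-221 and miR-222 and for 6 lists of microRNAs of named cell types, in experiment 1 (grey) and experiment 2 (green); each bar is 1 pair of libraries and has no error. The miR-126a sum is higher by 0.42 and 0.24, whereas the red cell bars point in opposite directions at 1.55 and -0.66.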

How the data were processed

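The authors deposited raw read counts per mature microRNA for experiment 1. The values that the authors deposited for experiment 2 are RPM, whose sums of 999899 (pair-fed) and 999896 (ethanol-fed) show that the denominator was the reads on microRNAs. Per the labels the build was mm8. Aligner, annotation and filters are not given in the sources used here. The authors' fold changes and p-values in the second table were not used, and the number of sample columns with no condition was 0. Both conditions have 1 library per table, assigned by column name, and no p-value was computed.

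Counts of experiment 1 were scaled to RPM. Log2 ratios were taken after adding 1 read per library, for microRNAs with at least 10 reads in both libraries together, and a ratio of at least 2-fold was counted as a call. The added read understates the change of rare microRNAs in experiment 1. For a microRNA listed at 0 in 1 library of experiment 2, where a 0 can stand for a few reads, the ratio can instead be overstated. Counting intervals are exact binomial (Clopper-Pearson) at 95%. The sources used here mention no molecular identifiers, and PCR copies cannot be told apart in the deposited values. A count of 0 in experiment 1 allows up to 0.719 RPM (pair-fed) or 0.696 RPM (ethanol-fed). Of the low values of experiment 2, under 60 RPM, 97.0% of 296 and 93.8% of 291 were whole steps within 0.0055 RPM.

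The 6 members, the lists of cell-type microRNAs and the tests were chosen with earlier results of these data known, and the lists were written from general knowledge. The text names all members, other microRNAs with a member's seed, the 3 nearest in level to each of miR-126a-3p, miR-221-3p and miR-222-3p, every measured microRNA of the endothelium list and the most abundant of each other list. Strands of a hairpin were compared within a library. Of the 1915 microRNA names, 1623 (84.8%) had a mature sequence in RefSeq (GRCm38.p6), and the tables themselves hold no coordinates. The alternatives were median-of-ratios size factors, unscaled reads in experiment 1, the total without the most abundant microRNA, other minimums and pseudocounts, and zeros of experiment 2 set to its lowest listed value. A minimum of 100 reads per strand was added after seeing the data. The ratios and intervals were tested on simulated data. Tools were scipy 1.17.1, numpy 2.4.6 and pandas 2.3.3 under Python 3.11.15, with matplotlib 3.10.9 for plots.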

Additional observations from a re-analysis of the deposited data

Results flagged for a closer look

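miR-222-3p was lower in the ethanol-fed library of experiment 1 (log2 ratio -0.69) and slightly higher in that of experiment 2 (0.0825). The opposite directions drew attention, and with 1 library per condition in each experiment the difference between the experiments was not tested. The second value is within counting error of 0.

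miR-222-5p went the other way, with a log2 ratio of 2.31 in experiment 1, from 6 and 35 reads, and of -0.38 in experiment 2, from about 38 and 29 reads. Here too the opposite directions were not tested, and the value of experiment 2 is within counting error of 0.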

How the results depend on the processing

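Of 48 alternative log2 ratios of the members, 42 moved by less than their counting interval and kept their direction. For miR-126a-5p in experiment 1 the value was 0.48 with unscaled reads, 0.46 with median-of-ratios size factors and 0.39 without the most abundant microRNA in the total, against 0.43. miR-126a-3p in experiment 2 was 0.23 with median-of-ratios size factors, against 0.24. miR-221-3p in experiment 1 turned from -0.02 to 0.0233 with unscaled reads and 0.0088 with median-of-ratios size factors, all within counting error of 0. The scalings moved the median of all microRNAs by at most 0.05. All 28 alternative strand and pair ratios stayed within their intervals. They changed only the pseudocount, since scaling does not enter a ratio within 1 library, so little movement was possible. With at least 100 reads of each strand 4 of 13 hairpins (30.8%) swapped strands, among them miR-126a and miR-221.

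The counts of microRNAs past 2-fold followed the minimum. Experiment 1 had 99 higher and 102 lower with no minimum and 10 and 9 at 100 reads. Experiment 2 had 12 higher and 24 lower at 100 reads, and 23 higher and 49 lower with zeros at the lowest listed value. Of 24 alternative log2 ratios of the lists, 0 stayed the same, 18 moved and 6 changed direction. The direction changed for endothelium in experiment 1 (0.11 without its most abundant microRNA) and hepatocytes in experiment 1 (0.0075 as the median, 0.11 without the most abundant). It also changed for mesenchyme in experiment 1 (0.62 and 0.50 in the same order) and in experiment 2 (-0.0019 as the median). The cause was not tested. Of the nearest microRNAs of miR-222-3p, 1 of 3 remained with at least 10 reads in each library.

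Within a table there was no replicate to leave out, and the spread between animals is not known. The 2 experiments are the 1 repeat of each comparison, and each ratio was given for them separately. Unscaled reads were not tried in experiment 2, which holds no counts. Depth limits miR-222-5p most.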
